A study of Mus musculus with 26 samples.

Results

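Enzymes that make, activate or inactivate androgens inside the target tissue were followed in the testis and in 2 epididymal regions, the initial segment (IS) and the adjoining caput, of ArKI and wild-type (WT) mice. The set held 7 genes, the 5-alpha-reductases *Srd5a1*, *Srd5a2* and *Srd5a3* and the 17-beta-hydroxysteroid dehydrogenases *Hsd17b2*, *Hsd17b4*, *Hsd17b6* and *Hsd17b11*, chosen by symbol among the 23337 genes of the deposited count tables. All 7 have a row in the tables. ArKI males carry a germline knockin, present in all cells, that blocks SUMOylation of the protein it alters. WT males lack the knockin, and both genotypes were C57Bl/6N; 129 hybrid and 3 months old. IS and caput were taken from 5 ArKI and 5 WT mice and testis from 3 ArKI and 3 WT mice, which gave 26 samples of whole tissue RNA.

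Testosterone reaches the epididymis in the fluid that leaves the testis. There 5-alpha-reductases convert it to dihydrotestosterone (DHT), the more potent androgen. SRD5A1 and SRD5A2 are the classical type 1 and type 2 isoenzymes, while SRD5A3 also reduces polyprenol in the synthesis of dolichol, the lipid carrier of protein N-glycosylation. The 17-beta-hydroxysteroid dehydrogenases of this set mainly act in the oxidative direction: HSD17B2 turns testosterone into androstenedione, HSD17B4 is a multifunctional enzyme of peroxisomal beta-oxidation, HSD17B6 oxidises androstanediol, and HSD17B11 is a short-chain dehydrogenase found on lipid droplets.

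IS libraries held 5829074 to 9770625 counts, caput libraries 4125768 to 11913469 and testis libraries 14077013 to 21376604, and ArKI caput replicate 2 was the shallowest. The detection limit was set at 3 counts, which equals 0.294 to 0.481 CPM (counts scaled to a standard library size) for IS, 0.238 to 0.641 for caput and 0.172 to 0.258 for testis libraries. Such limits reflect counting error alone. The IS marker *Cst8* was 3190 ± 139 CPM (SD, n = 5) in the WT IS and 146 ± 142 (SD, n = 5) in the WT caput, and the caput marker *Lcn5* was 79.2 ± 19.7 and 14500 ± 1230 CPM (SD, n = 5 each), so the labelled segments carried their own markers. Of the other marker genes listed for the segments, *Ggt1* was higher in the caput than in the IS and *Crisp1* higher in the WT IS than in the WT caput, while *Gpx5* and *Adam7* were high in both.

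The genes lie on separate chromosomes except *Srd5a3* and *Hsd17b11*, which share chromosome 5 (GRCm38, the mm10 build). *Srd5a1* spans chr13:69573449-69611485 and *Srd5a2* spans chr17:74014891-74047860, both on the minus strand. *Srd5a3* spans chr5:76140273-76155503 on the plus strand and *Hsd17b11* chr5:103989765-104021796 on the minus strand. *Hsd17b2* lies at chr8:117700982-117759030 and *Hsd17b6* at chr10:127990931-128007648.

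The 250 bases before the annotated start of *Srd5a1*, *Srd5a2* and *Hsd17b11* are shown because these genes carried the largest differences between segments, tissues or genotypes. They come from RefSeq on GRCm38.p6 and read 5′ to 3′ on the minus strand, at chr13:69611464-69611713 for *Srd5a1*, chr17:74047861-74048110 for *Srd5a2* and chr5:104021797-104022046 for *Hsd17b11*. The gene spans above and these windows were taken from separate annotation records, and the *Srd5a1* window overlaps the end of the *Srd5a1* span. Capitals mark the GC box GGGCGG or its reverse complement CCGCCC.
*Srd5a1*: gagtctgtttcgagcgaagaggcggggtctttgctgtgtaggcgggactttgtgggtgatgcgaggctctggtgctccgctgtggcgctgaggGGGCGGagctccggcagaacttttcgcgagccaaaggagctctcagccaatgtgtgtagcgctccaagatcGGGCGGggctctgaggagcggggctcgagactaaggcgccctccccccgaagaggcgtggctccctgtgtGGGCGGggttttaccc
*Srd5a2*: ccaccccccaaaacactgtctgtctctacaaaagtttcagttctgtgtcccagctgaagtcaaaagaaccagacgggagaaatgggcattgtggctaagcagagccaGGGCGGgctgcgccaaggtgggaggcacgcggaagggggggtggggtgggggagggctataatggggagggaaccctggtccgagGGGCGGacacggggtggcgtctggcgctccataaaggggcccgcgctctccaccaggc
*Hsd17b11*: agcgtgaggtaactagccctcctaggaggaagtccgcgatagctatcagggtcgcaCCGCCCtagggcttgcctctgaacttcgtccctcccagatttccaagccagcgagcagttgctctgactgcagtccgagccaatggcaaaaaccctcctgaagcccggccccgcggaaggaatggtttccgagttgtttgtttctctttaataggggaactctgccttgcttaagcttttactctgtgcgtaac
RefSeq promoters were matched for 5 of the 7 genes, and *Hsd17b2* and *Hsd17b4* were not among them. The GC box occurred 3 times in *Srd5a1*, 2 times in *Srd5a2*, 2 times in *Srd5a3* and 1 time in *Hsd17b11*, and 32.7% of all 32851 RefSeq promoter windows of this length held it on either strand. The androgen half-site AGAACA (reverse complement TGTTCT) was in none of the 5 matched genes' windows, and 16.1% of all windows held it. The ETS-type motif AGGAAG (reverse complement CTTCCT) occurred 1 time in *Hsd17b11* and 1 time in each of both windows of *Hsd17b6*, against 29.5% of all windows. These matches describe letters in a window and were not set against any binding data.

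The enzymes differed widely in level, compared here as RPKM, the CPM divided by exon length in kilobases. In the WT IS *Srd5a2* was the most abundant at 57.9 ± 6.49 RPKM (SD, n = 5), followed by *Hsd17b4*, a gene at chr18:50128201-50196270 on the plus strand, at 41.7 ± 2.10. *Hsd17b11* at 26.5 ± 1.79 and *Srd5a1* at 24.8 ± 2.20 RPKM overlapped in their samples, and *Srd5a3* stood at 12.5 ± 0.777 RPKM. In the WT caput the order was *Srd5a2* (72.3 ± 5.96 RPKM), *Hsd17b4* (33.7 ± 1.13), *Hsd17b11* (17.5 ± 1.81), *Srd5a3* (10.6 ± 0.246) and *Srd5a1* (3.25 ± 0.882; SD, n = 5 each). In the WT testis *Hsd17b4* led at 25.0 ± 1.13 RPKM (SD, n = 3) and *Srd5a2* was lowest of the genes above the detection limit at 0.283 ± 0.164. *Srd5a1* thus stood above *Srd5a3* in the WT IS and below it in the WT caput, with no overlap of their samples in either segment. RPKM depend on the exon length used, here that of transcripts with RefSeq accessions. With all annotated transcripts counted, *Hsd17b11* fell to 14.8 ± 0.999 RPKM in the WT IS, below *Srd5a1* at 22.5 ± 2.00 without overlap, and *Srd5a3* to 4.70 ± 0.292, while *Srd5a1* and *Srd5a3* kept their order in both WT segments.

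*Hsd17b2* and *Hsd17b6* were at or near the detection limit in the epididymis. *Hsd17b6* had 1 count in 1 WT sample of each tissue and 0 counts in the other 23 samples, so any level lay below the limits given above. *Hsd17b2* had 0 counts in all 5 WT IS samples and 1 count in 1 of the 5 ArKI IS samples. In the caput it had 1, 2, 2, 0 and 1 counts in WT and 2, 3, 2, 2 and 4 in ArKI samples, which overlap and reach above 3 counts in 1 sample. In the testis it had 12, 23 and 17 counts in WT and 23, 22 and 15 in ArKI samples, or 1.42 ± 0.567 and 1.34 ± 0.340 CPM (SD, n = 3). These genes were not tested in the epididymis, where 5 of the 7 genes passed the filter on low counts.

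**Figure D1:**
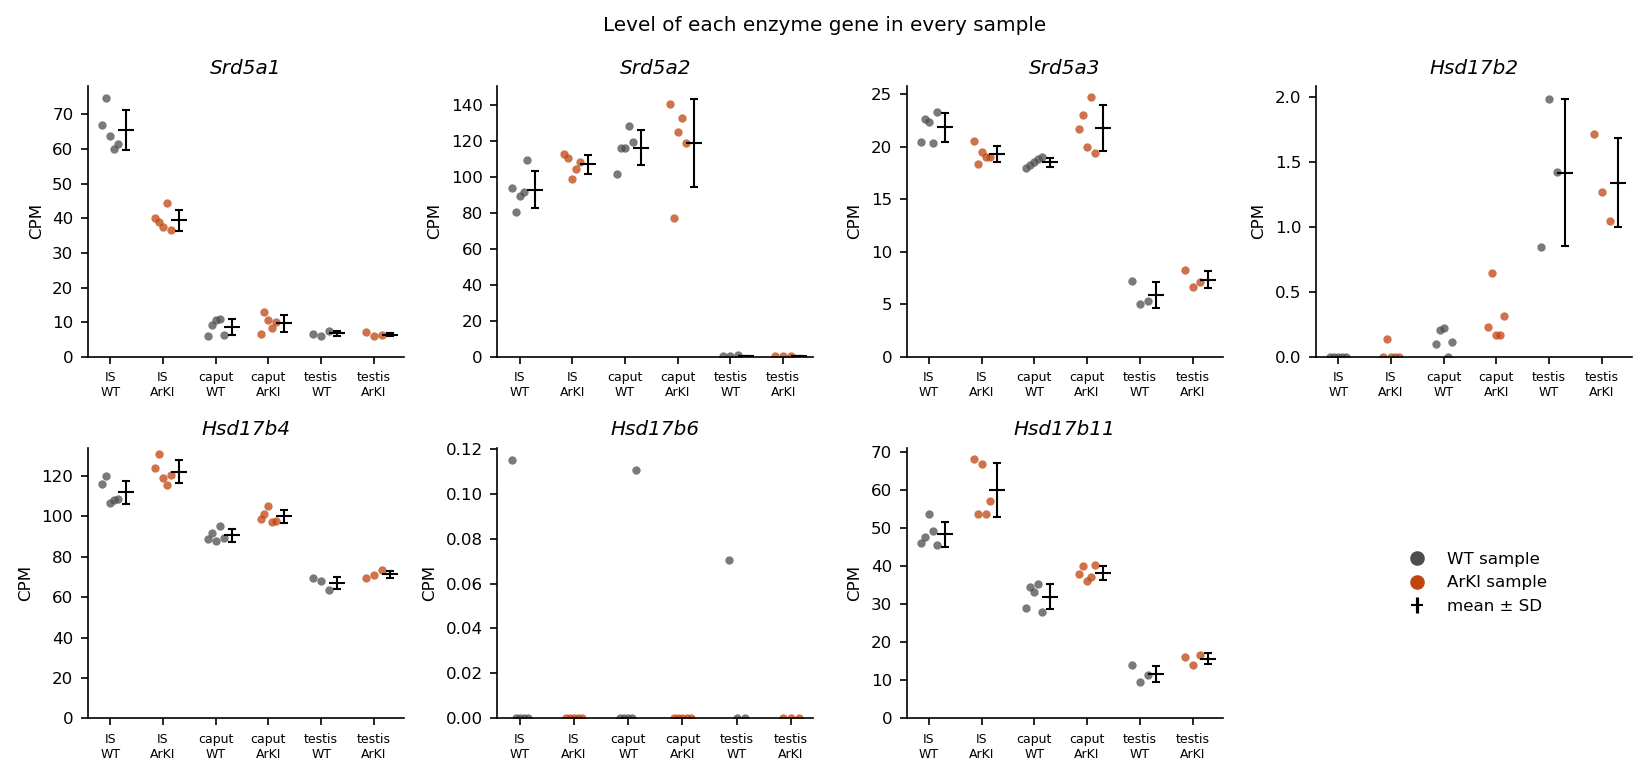
CPM of each of the 7 genes (y axis, from 0, scaled per gene) in every sample of the 6 groups (x axis), with mean ± SD beside groups that reach more than 4 counts. The 5 WT IS samples of *Srd5a1* lie above the 5 ArKI IS samples, *Srd5a2* is close to 0 in the testis, and *Hsd17b6* is at 0 in all but 3 samples.

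To learn whether the local enzymes differ with the knockin, ArKI and WT samples were compared within each tissue. In the IS 2 of the 5 tested genes changed: *Srd5a1* was downregulated and *Hsd17b11* upregulated. Neither change reached a fold of 2, and the other 3 genes did not pass. Across all 13434 genes tested in the IS, 18.8% passed the same limit, an adjusted p below 0.01 by edgeR. With the fold limit added, 2.72% of all genes were higher and 1.32% lower in ArKI, and none of the 5 enzymes was in either group.

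*Srd5a1* had 67.1, 74.8, 63.8, 60.1 and 61.5 CPM in the WT IS samples. In the ArKI IS samples it had 40.1, 38.9, 37.5, 44.4 and 36.5 CPM. Every ArKI sample thus lay below every WT sample. The mean went from 65.4 ± 5.83 to 39.5 ± 3.06 CPM (SD, n = 5 each), which is 1.66-fold lower (log2 fold change -0.73 ± 0.067 SE, edgeR adjusted p = 1e-07). Leaving out any 1 sample kept the log2 fold change between -0.77 and -0.68.

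*Hsd17b11* moved in the opposite direction. It had 46.1, 47.6, 53.6, 49.1 and 45.5 CPM in the WT IS samples and 68.2, 53.7, 66.8, 53.7 and 57.1 CPM in the ArKI IS samples. The groups touched without overlapping, since the highest WT sample and the lowest ArKI samples lay near each other. The mean went from 48.4 ± 3.26 to 59.9 ± 7.09 CPM (SD, n = 5 each), or 0.32 ± 0.073 (SE) on the log2 scale with an edgeR adjusted p of 0.0028. Without WT IS replicate 2 the log2 fold change was 0.31 and the adjusted p rose just above the limit, to 0.01. Non-overlapping groups were seen in 2 of the 5 enzymes and in 20.2% of all genes tested in the IS.

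The type 2 reductase did not follow the type 1 enzyme. *Srd5a2* had 80.6 to 109 CPM in the WT and 99.0 to 112 CPM in the ArKI IS samples, which overlapped, with a log2 fold change of 0.20 (95% interval 0.07 to 0.34, adjusted p = 0.026 from edgeR). This value passed the limit when WT IS replicate 5, the highest WT sample, was left out (0.27, adjusted p = 0.0011) and when counts were scaled by library size only (0.23, adjusted p = 0.0079). The log2 values of *Srd5a3* and *Hsd17b4* were -0.17 (adjusted p = 0.095) and 0.13 (adjusted p = 0.039). The median over the 5 enzymes was 0.13, against 0.00 over all genes tested.

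Cell type markers also differed between the genotypes in the IS. In these bulk samples fewer cells of a type and less RNA per cell cannot be told apart. The summed level of 5 genes listed for IS principal cells was 4440 to 4790 CPM in WT and 3260 to 3930 CPM in ArKI samples. Of these genes 3 passed as lower: *Cst8* (log2 fold change -0.57), *Etv4* (-0.40) and *Etv5* (-0.20). The others, *Ros1* (0.08) and *Ggt1* (0.24), went the opposite way and did not pass. Most of the sum was *Cst8*, with means of 3190 CPM in WT and 2140 CPM in ArKI samples. All 5 smooth muscle genes were lower (summed 513 to 597 CPM in WT and 224 to 399 in ArKI), as were 3 of 4 endothelial genes and 3 of 5 macrophage genes. Of 4 genes of efferent duct ciliated cells 2 were higher in ArKI (summed 44.3 to 71.9 CPM in WT and 71.9 to 225 in ArKI). Both tested genes of late spermatids and sperm, *Prm2* and *Odf1*, were lower (summed over the 7 listed, 9.26 to 61.6 CPM in WT and 1.9 to 5.13 in ArKI), as were the basal cell genes *Krt5* (-0.66) and *Itga6* (-0.27). Other lists moved both ways: the caput markers *Adam7* (0.48) and *Crisp1* (-2.58), the clear cell genes *Slc4a9* (2.24) and *Atp6v0d2* (-0.33), the fibroblast genes *Col1a1* (0.60) and *Pdgfra* (-0.23) and, of the list for Sertoli cells of the testis, *Sox9* (0.32) and *Cldn11* (-1.02). None of the markers named here was at 0 in either group. *Slc4a9*, at 0.108 to 0.687 CPM in the WT IS, and *Prm2*, at 0.271 to 1.44 CPM in the ArKI IS, reached below the detection limit. The sizes of their changes are therefore uncertain. The part of the markers named here in the changes of *Srd5a1* and *Hsd17b11* was not tested.

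In the caput none of the 5 tested enzymes passed the adjusted p of 0.01, where 18.0% of all 13726 genes tested did. None of the 5 was among the 2.43% of genes upregulated or the 2.55% downregulated by more than 2-fold. The count was also 0 with DESeq2 and with limma-voom. An unadjusted p below 0.05 was reached by 3 of the 5, *Srd5a3*, *Hsd17b4* and *Hsd17b11*, and by 37.7% of all genes. These 3 genes each came with all ArKI samples above all WT samples. Such separation was seen in 19.9% of all genes tested in the caput.

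*Srd5a1* had 5.98, 9.10, 10.7, 10.8 and 6.31 CPM in the WT caput and 6.53, 13.03, 10.6, 8.24 and 9.99 CPM in the ArKI caput. The groups overlapped along most of their range. The log2 fold change was 0.14 with a 95% interval from -0.30 to 0.58 (adjusted p = 0.68 from edgeR). *Srd5a2* was 116 ± 9.57 CPM in WT and 119 ± 24.5 in ArKI samples (SD, n = 5 each), with ArKI replicate 2 lowest at 77.3 CPM, and its log2 fold change was 0.03 (95% interval -0.26 to 0.32). Without that replicate, which also had the lowest depth, the log2 fold change of *Srd5a2* was 0.14 (adjusted p = 0.11).

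*Hsd17b11* had 28.9, 34.4, 33.3, 35.3 and 28.0 CPM in the WT caput and 37.9, 40.0, 35.99, 37.1 and 40.4 CPM in the ArKI caput. At 0.24 ± 0.072 (SE) on the log2 scale, with an edgeR adjusted p of 0.018, it missed the limit. *Srd5a3* rested on 17.9 to 19.1 CPM in WT and 19.4 to 24.8 CPM in ArKI samples, with a log2 fold change of 0.22 (adjusted p = 0.056). *Hsd17b4* went from 90.5 ± 3.02 to 99.9 ± 3.42 CPM (SD, n = 5 each; log2 fold change 0.13, adjusted p = 0.038). All 7 late spermatid and sperm markers were lower in the ArKI caput (summed 205 to 318 CPM in WT and 32 to 91.4 in ArKI). The endothelial genes *Kdr* (0.91) and *Pecam1* (0.42), the fibroblast gene *Lum* (0.44), the IS gene *Ros1* (0.36) and the clear cell gene *Atp6v1b1* (0.61) were higher, while *Atp6v0d2* of clear cells (-0.25) and *Ccdc39* of ciliated cells (-1.05) were lower. Other tested genes of these lists did not pass, and several went the opposite way. These were *Cst8* (-2.01), *Etv5* (-0.31) and *Ggt1* (-0.14) of the IS, *Pdgfra* of fibroblasts (-0.47), *Cdh5* of endothelium (-0.01) and *Foxj1* of ciliated cells (0.44). Of the Sertoli cell list *Sox9* was higher (0.74) and *Cldn11* lower (-1.32). *Sox9* had means of 125 CPM in the WT IS and 52.2 CPM in the WT caput, against 23.4 CPM in the WT testis. Its epididymal level is therefore not read as Sertoli cells. The caput epithelium gene *Rhox5* was 4.96 to 7.03 CPM in WT and had 0 counts in every ArKI caput sample. The part of these markers in the enzyme values was not tested.

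In the testis, at an adjusted p below 0.2 and with no limit on the fold, *Hsd17b11* passed and the other 4 tested genes did not. *Hsd17b11* had 13.9, 9.64 and 11.3 CPM in WT and 16.2, 14.0 and 16.7 CPM in ArKI samples, so the groups were separate by a narrow gap. On the log2 scale the rise was 0.39 ± 0.129 (SE), with an edgeR adjusted p of 0.16, and at 1.31-fold it stayed below the fold of 2 that the study also required. The call was lost without WT replicate 2 (0.26, adjusted p = 0.32), without WT replicate 3 (0.37, adjusted p = 0.46), without ArKI replicate 1 (0.35, adjusted p = 0.36) and without ArKI replicate 3 (0.34, adjusted p = 0.29). Among all 15838 genes 5.34% passed, or 846 genes, a count that ran from 349 to 1315 with 1 library left out (349 without WT replicate 3, 500 without ArKI replicate 1, 542 without ArKI replicate 2 and 1315 without WT replicate 2). In the same fit 0.751% were upregulated and 0.0821% downregulated by more than 2-fold, and 17.5% had groups that did not overlap, as 2 of the 5 tested enzymes did. Of 6 Leydig cell genes *Cyp17a1* and *Cyp11a1* were higher in ArKI, while *Star* (0.33), *Insl3* (0.02), *Hsd3b1* (-0.89) and *Hsd3b6* (-0.28) did not pass. The sum of the 6 was 729 to 941 CPM in WT and 1130 to 1180 in ArKI. Of the other lists *Col1a1* of fibroblasts (0.48), *Acta2* of smooth muscle (0.35) and *C1qa* of macrophages (0.44) passed as higher and the epididymal gene *Gpx5* (-0.54) as lower. The remaining genes of these lists did not pass. Among them *Myh11* (-0.22) and *Tagln* (-0.13) of smooth muscle, *Adgre1* of macrophages (-0.16) and the epididymal gene *Rhox5* (0.29) went the opposite way. The part of all these markers in the *Hsd17b11* value was not tested.

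The reductases of the testis did not pass. *Srd5a1* was 6.78 ± 0.715 CPM in WT and 6.43 ± 0.557 in ArKI testis (SD, n = 3 each), with a log2 fold change of -0.11 (95% interval -0.42 to 0.20, adjusted p = 0.81 from edgeR). On the same scale *Srd5a3* stood at 0.27 (adjusted p = 0.50), *Hsd17b4* at 0.06 (adjusted p = 0.77) and *Hsd17b2* at -0.09 (adjusted p = 0.94). *Srd5a2*, at 3 to 9 counts per testis sample, was below the filter, and its depth cannot show a change.

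**Figure D2:**
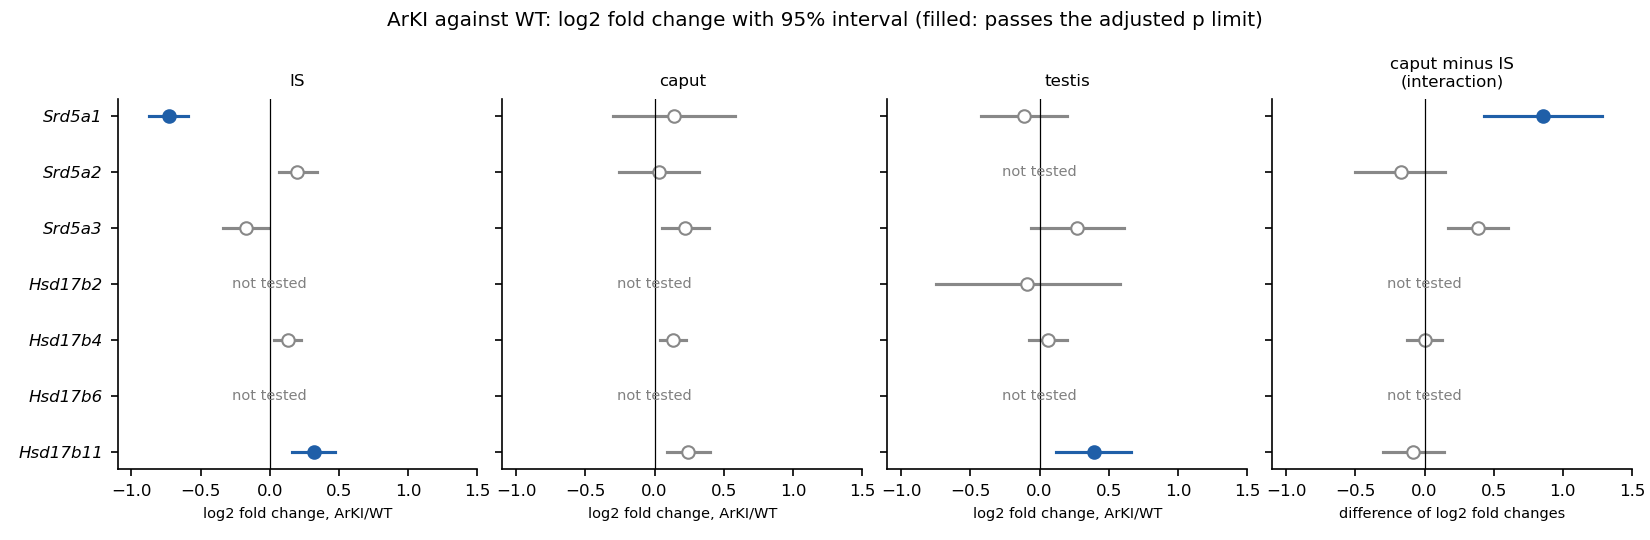
Log2 fold change of ArKI against WT (x axis) with its 95% interval for each gene (y axis) in the IS, caput and testis, and the caput change minus the IS change in the last panel. Filled points pass the adjusted p limit (0.01, in the testis 0.2): *Srd5a1* at -0.73 and *Hsd17b11* at 0.32 in the IS, *Hsd17b11* at 0.39 in the testis, and *Srd5a1* at 0.86 in the last panel.

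The difference between the segments was tested by itself, as the interaction of segment and genotype in all 20 epididymal samples. *Srd5a1* was the enzyme that passed, with the ArKI change 0.86 higher on the log2 scale in the caput than in the IS (standard error 0.203, 95% interval 0.43 to 1.28, adjusted p = 0.0058 from edgeR). Among all 14329 genes 8.18% passed. With a replicate block the value was 0.87 and missed the limit (adjusted p = 0.031). The call sat near the limit without the block too: leaving out any 1 of 8 of the 20 samples (IS WT replicates 1 and 2, IS ArKI replicates 2 and 5, caput WT replicates 1 and 5 and caput ArKI replicates 3 and 5) gave estimates of 0.74 to 0.84 with adjusted p values of 0.01 to 0.015. For *Srd5a3* the difference was 0.39 (adjusted p = 0.012), which passed without caput ArKI replicate 3 (0.41, adjusted p = 0.0089) or 5 (0.43, adjusted p = 0.0058). For *Hsd17b11* it was -0.08 (95% interval -0.30 to 0.14, adjusted p = 0.71), so a difference between its changes in IS and caput was not detected. *Hsd17b4* gave 0.00 (95% interval -0.13 to 0.13) and *Srd5a2* -0.17 (adjusted p = 0.52).

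Levels were then compared between the segments of each genotype. In WT mice 4 of the 5 enzymes were lower in the caput than in the IS, where 60.3% of all genes tested differed at an adjusted p below 0.01. In ArKI mice 3 of the 5 were lower, with 56.3% of all genes differing. The methods name 5 ArKI and 5 WT mice as the source of both segments, so IS and caput samples share animals. Which samples share a mouse is not given in the sources used here, and the segment and interaction tests therefore treated the 20 samples as separate, with a replicate block as an alternative.

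*Srd5a1* showed the largest segment difference of the 5 enzymes in both genotypes. In WT mice its level was 65.4 ± 5.83 CPM in the IS and 8.59 ± 2.33 in the caput (SD, n = 5 each), 7.64-fold lower (log2 fold change -2.93, standard error 0.136, adjusted p = 2.3e-14 from edgeR). In ArKI mice it was 39.5 ± 3.06 and 9.67 ± 2.45 CPM, 4.22-fold lower (log2 fold change -2.08, adjusted p = 1.7e-11). The highest caput sample, at 13.03 CPM, lay far below the lowest IS sample, at 36.5 CPM.

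*Hsd17b11* fell by 0.59 on the log2 scale from IS to caput in WT mice (adjusted p = 1.4e-07) and by 0.67 in ArKI mice (adjusted p = 1.3e-08, both from edgeR). *Hsd17b4* fell by 0.30 in both genotypes (adjusted p = 1.2e-06 in each). *Srd5a3* fell by 0.24 in WT mice (adjusted p = 0.006), a call that was lost with the replicate block (-0.23, adjusted p = 0.012) and without any 1 of WT IS replicates 2, 3 and 5 and WT caput replicates 1 to 4 (-0.23 to -0.20, highest adjusted p 0.024). In ArKI mice its value was 0.15 in the other direction (adjusted p = 0.078). *Srd5a2* did not pass in either genotype, with a log2 difference of 0.32 in WT (adjusted p = 0.013) and 0.15 in ArKI mice (adjusted p = 0.23). Without the shallow caput ArKI replicate 2 both passed, at 0.33 (adjusted p = 0.00016) and 0.25 (adjusted p = 0.0034). The WT value also passed by edgeR without WT IS replicate 5 (0.40, adjusted p = 0.0046) or WT caput replicate 1 (0.37, adjusted p = 0.0084). It passed too with library size only (0.31, adjusted p = 0.0076), in the WT samples alone (0.32, adjusted p = 0.0018) and with DESeq2 (0.33, adjusted p = 0.0041). In 23 of 30 alternatives the WT value missed the limit.

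Caput samples differed among themselves in IS markers, and *Srd5a1* is itself higher in the IS. *Cst8* in the WT caput was 14.2, 60.9, 308, 291 and 53.9 CPM, or 0.444% to 9.66% of its mean in the WT IS. *Srd5a1* in the same samples was 9.14% to 16.6% of its IS mean, and the samples with the most *Cst8*, replicates 3 and 4, also had the most *Srd5a1*. In the ArKI caput *Cst8* was 0.348% to 3.86% and *Srd5a1* 16.5% to 33.0% of the ArKI IS mean, and there the sample with the most *Srd5a1*, replicate 2, had little *Cst8* (0.809%). *Etv4* and *Etv5* stayed between 0.466% and 10.8% of their IS means over all 10 caput samples. With the 2 caput samples of each genotype richest in *Cst8* left out, the segment difference of *Srd5a1* was -3.19 in WT and -2.07 in ArKI mice and the interaction was 1.12 (adjusted p = 0.0024), while the ArKI change within the caput was 0.42 (adjusted p = 0.32). This choice of samples was made after seeing the data.

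**Figure D3:**
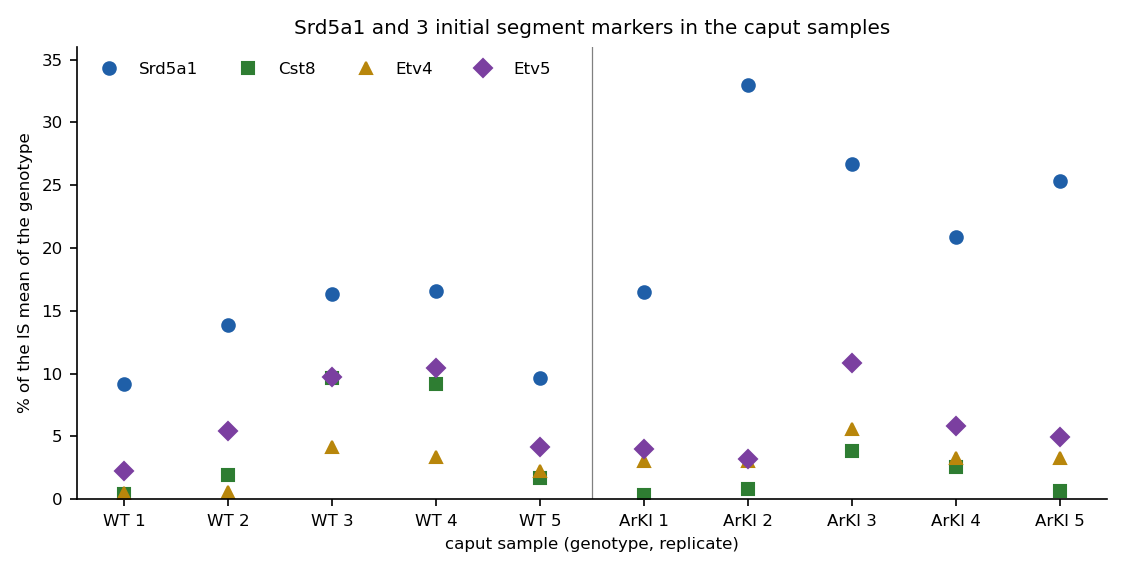
Level of *Srd5a1* and of the IS markers *Cst8*, *Etv4* and *Etv5* in each caput sample (x axis: genotype and replicate) as a percentage of the mean of the IS samples of that genotype (y axis). *Srd5a1* lies above all 3 markers in each of the 10 samples, between 9.14% and 33.0%.

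The balance of the reductase isoenzymes differed between segments and, in the IS, between genotypes, given here as a description without a test. *Srd5a1* made up 30.2%, 36%, 30.2%, 28.5% and 25.5% of the summed *Srd5a1* and *Srd5a2* RPKM in the WT IS samples. In the ArKI IS it made up 17.8%, 17.7%, 18.7%, 20.6% and 17%, below every WT sample. In the caput the share was 4.26% ± 0.944 in WT and 5.08% ± 2.51 in ArKI samples (SD, n = 5 each), the latter with ArKI replicate 2 at 9.28%. In the testis *Srd5a1* made up 90.5% ± 4.03 in WT and 91.1% ± 3.49 in ArKI samples (SD, n = 3 each). The summed RPKM of both reductases was 82.6 ± 5.25 in the WT IS, 81.5 ± 3.49 in the ArKI IS, 75.6 ± 6.54 in the WT caput and 77.6 ± 14.4 in the ArKI caput (SD, n = 5 each). The samples of these 4 groups overlapped in the sum. In the testis the sum was 2.85 ± 0.433 in WT and 2.67 ± 0.201 in ArKI samples. These shares rest on the exon length of each gene, and with all annotated transcripts counted in that length the WT IS share was 28.1% and the ArKI IS share 16.9%.

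**Figure D4:**
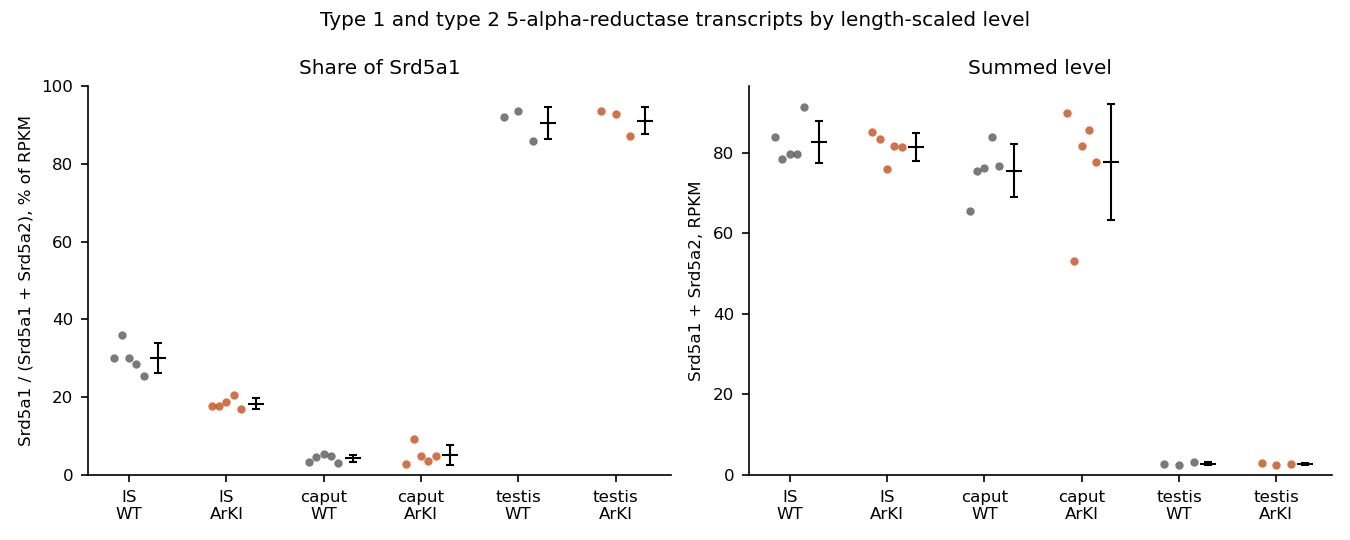
Left, share of *Srd5a1* in the summed RPKM of *Srd5a1* and *Srd5a2* (y axis, percent); right, that sum (y axis, RPKM), for every sample of the 6 groups (x axis), with mean ± SD. The share is 30.1% in the WT IS, 18.4% in the ArKI IS, 4.26% and 5.08% in the WT and ArKI caput and 90.5% and 91.1% in the testis, where the mean sum is 2.85 and 2.67 RPKM.

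The WT testis was then compared with both WT segments. In WT samples 5 of 5 tested enzymes were lower in testis than IS, and 4 of 5 lower in testis than caput. At an adjusted p below 0.01, 88.8% and 89.2% of all genes tested differed in these comparisons, with median log2 differences of 0.19 and 0.16. The epididymal samples are labelled sequencing batch 2 and the testis samples batch 1, so tissue and batch cannot be told apart.

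*Srd5a2* differed most, with 5, 3 and 9 counts in the WT testis samples (0.352, 0.258 and 0.753 CPM). It was lower than in the IS (log2 fold change -7.56, 95% interval -7.96 to -7.15, adjusted p = 2.7e-18 from edgeR) and the caput (-7.88, 95% interval -8.28 to -7.49, adjusted p = 9.2e-19), sizes that rest on these few testis counts, 1 of them at the detection limit. Testis *Srd5a1* was below that of the IS (-3.17, adjusted p = 4.8e-14), and its difference from the caput did not pass (-0.24, 95% interval -0.61 to 0.13, adjusted p = 0.19). Scaled by library size only or by upper-quartile factors, this last difference passed, at -0.63 (adjusted p = 0.0017) and -0.74 (adjusted p = 0.00054), with the median of all genes then at -0.23 and -0.34. *Hsd17b11* had log2 differences of -1.95 against the IS and -1.36 against the caput, *Srd5a3* of -1.79 and -1.56, and *Hsd17b4* of -0.64 and -0.35, all past the limit. For *Hsd17b4* they were -1.05 and -0.74 by library size only and -1.12 and -0.85 by upper-quartile factors. *Hsd17b2*, whose WT counts were 12 to 23 for testis and 0 to 2 for epididymal samples, did not pass the filter of this fit and has no test.

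**Figure D5:**
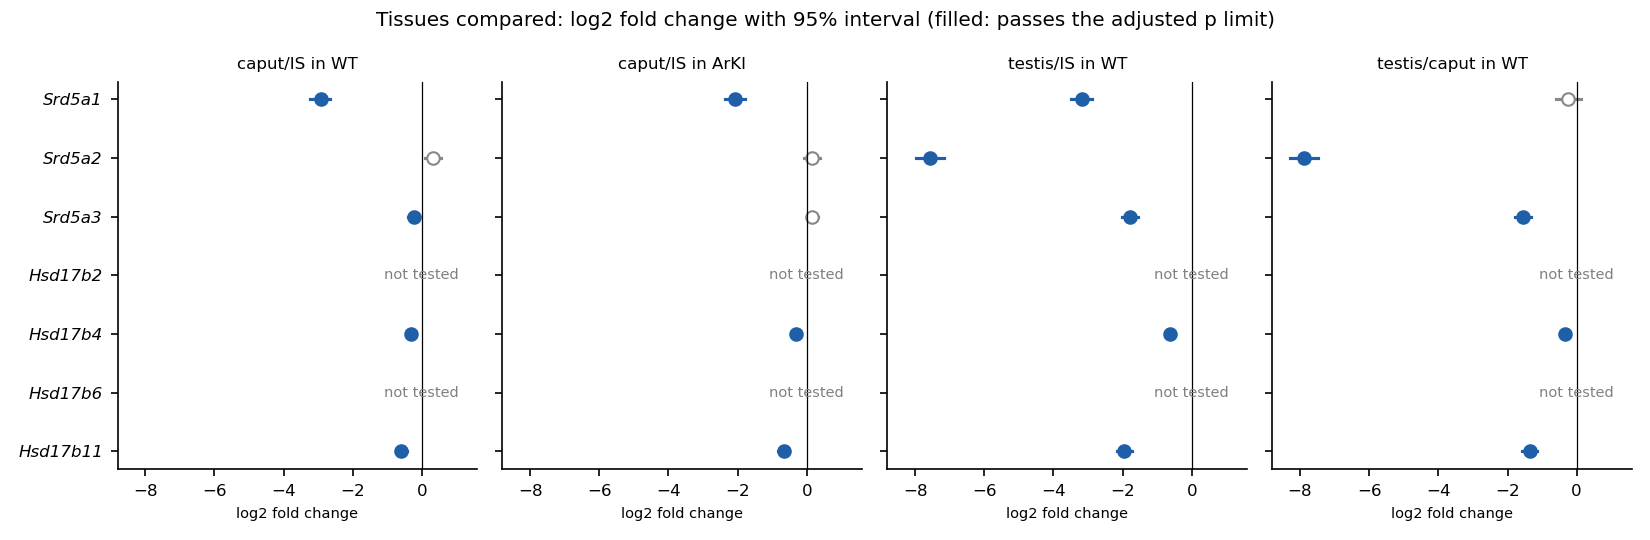
Log2 fold change (x axis) with its 95% interval for each gene (y axis), for caput over IS in WT and in ArKI mice and for WT testis over WT IS and WT caput. *Srd5a1* is the leftmost point in both segment panels, at -2.93 and -2.08, and *Srd5a2* in both testis panels, at -7.56 and -7.88.

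The order of *Srd5a1* levels was thus IS WT, IS ArKI, and then the caput and testis groups. The WT and ArKI caput did not differ beyond their spread, nor did the WT and ArKI testis or the WT caput and WT testis under TMM scaling. For *Hsd17b11* all ArKI samples lay above all WT samples in each tissue, by narrow gaps. The edgeR adjusted p values were 0.0028 in the IS, 0.018 in the caput and 0.16 in the testis. In the testis the limit was 0.2 in place of 0.01. Groups that did not overlap were seen in 20.2% of all genes tested in the IS, 19.9% in the caput and 17.5% in the testis. The share of genes separate in every tissue was not counted, and IS and caput samples share animals. For *Srd5a2* all epididymal groups lay between 77.3 and 140 CPM in every sample and all testis samples below 1 CPM.

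Other genes of androgen and steroid metabolism were described from 8 lists with 44 genes in the tables. In the IS 5 of 17 tested genes passed (29.4%), in the caput 6 of 17 (35.3%) and in the testis 6 of 19 (31.6%), against the shares of all genes given above. *Sult1e1*, the estrogen sulfotransferase, had the largest rise of the listed genes in all 3 tissues, with log2 fold changes of 4.46 in the IS, 3.83 in the caput and 2.70 in the testis (adjusted p = 3.6e-08, 9.8e-08 and 0.032 from edgeR). *Hsd11b1*, which regenerates active glucocorticoids, rose by 1.68 in the IS and 1.23 in the caput. In the caput *Akr1c12* and *Akr1c13*, aldo-keto reductases, fell by 1.06 and 1.05, values that are uncertain because the closely related *Akr1c* genes can share reads. *Akr1c13* also fell in the IS, by 0.56.

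Of the reductive 17-beta-hydroxysteroid dehydrogenases, which produce testosterone or estradiol, 2 of 5 were tested in the epididymal segments, where *Hsd17b12* fell by 0.22 in the caput. *Hsd17b3*, the testicular enzyme that makes testosterone, had 0 counts in the IS and caput of both genotypes. It rose by 0.51 in the ArKI testis (adjusted p = 0.0017 from edgeR). In the same tissue the genes of precursor synthesis *Cyp11a1* and *Cyp17a1*, which are also the 2 Leydig cell markers that passed, rose by 0.92 and 0.59. *Cyp17a1* rose in the ArKI caput too, by 0.44. In the IS its value was larger but missed the limit (0.80, adjusted p = 0.054), as did *Cyp11a1* (0.77, adjusted p = 0.032), and the segment difference of the *Cyp17a1* change was -0.36 (adjusted p = 0.47, all from edgeR). Between the WT segments *Cyp17a1* was higher in the caput, by 3.62, and *Hsd11b2*, which inactivates glucocorticoids, passed as higher from an IS level near the detection limit. *Rdh16*, *Akr1c18* and *Cyp11a1* passed as lower there, at or near the detection limit, so no fold is given. *Cyp11a1* also passed in the interaction, but its 0 to 0.214 CPM in the ArKI caput lay below that limit and the size of the difference cannot be read.

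The 3 further lists held genes of the pathways in which single members of the set also work, and their counts stand against 18.8% (IS), 18.0% (caput) and 5.34% (testis) of all genes passing. The dolichol and peroxisomal counts were near those shares or at 0. Of 8 dolichol pathway genes, the pathway of *Srd5a3*, 0 passed in the IS and in the testis, by edgeR at adjusted p limits of 0.01 and 0.2, while 2 fell in the caput, *Dhdds* by 0.22 and *Dpm1* by 0.20. Of the peroxisomal beta-oxidation genes, the pathway of *Hsd17b4*, 2 of 10 passed in the IS, *Acox2* with a rise of 1.39 and *Acox3* with a fall of 0.37. In the caput *Acox3* and *Ehhadh* fell, by 0.28 and 0.38. Of the lipid droplet genes, the compartment of *Hsd17b11*, 3 of 12 passed in the IS: the droplet coat gene *Plin5* rose by 1.04, while *Pnpla2*, a triglyceride lipase, and *Dgat2*, a triglyceride synthase, fell by 0.20 and 0.86. In the testis *Plin4* and *Plin5* rose by 1.17 and 1.16. In the caput 4 of 10 passed, with *Plin4* higher and *Plin2*, *Plin3* and *Dgat2* lower. Between the WT segments *Plin4* was higher in the caput by 1.86, whereas *Acox2*, *Cidea* and *Cideb* passed as lower there, at or near the detection limit.

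The genes whose levels ran most like each enzyme over the 20 epididymal samples were found among 14328 others, as a description. Pearson's r was 0.989 for *Capg*, 0.988 for *Dok1* and 0.988 for *Ptprs* with *Srd5a1*. *Hsd17b4* ran closest to *Dgkz* (0.959), *Cd34* (0.952) and *Fcgr2b* (0.952), and *Hsd17b11* to *Glud1* (0.957), *Ptprk* (0.956) and *Dlg4* (0.954). *Srd5a2* had its highest values with *Wipf3* (0.864), *Lrrk2* (0.820) and *Fam120c* (0.806), and *Srd5a3* with *Tead2* (0.806), *Foxs1* (0.786) and *Col4a2* (0.771). Within the set *Hsd17b4* and *Hsd17b11* had an r of 0.895 and *Srd5a1* and *Srd5a2* one of -0.606. The points share libraries and fall into separate segments, so these values describe the samples only.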

How the data were processed

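RNA-seq libraries of whole IS, caput and testis were sequenced by the authors as single-end reads, the epididymal samples in one run and the testis samples in another. Per the labels and the study's methods, the authors aligned the reads with STAR to mm10 and deposited counts of uniquely mapped reads per RefSeq gene, made with Subread 1.5.1. The strand setting of the counting is not given in the sources used here, and the kit is named differently in the labels and the methods.

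Each deposited count table was tested with edgeR 4.0.16 in R 4.3.3 (filterByExpr, TMM scaling, robust quasi-likelihood test, Benjamini-Hochberg adjustment). A gene passed at an adjusted p below 0.01, or below 0.2 for ArKI against WT in the testis, and a fold above 2 was counted separately. ArKI was compared with WT using only the samples of that tissue. Segments and their interaction with genotype were fitted on all 20 epididymal samples, and WT tissues on the 13 WT samples. The code was tested on simulated data. CPM share 1 TMM scale over 26 libraries, and RPKM divide them by the union of exons of each gene's transcripts with RefSeq accessions in GENCODE vM21. Total counts ranged from 4125768 to 21376604 per sample.

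The genes and all gene lists were chosen with earlier results of these data known. Named genes are the 7 enzymes, listed genes that passed with a fold above 2 (at most 5 per list, direction and comparison; those between WT testis and epididymis are not described), and the 3 genes most like each enzyme by Pearson's r of log2(CPM + 0.5). Other listed or marker genes that the text names were chosen after their values were seen. Alternatives were RLE and library-size scaling (upper-quartile for tissues), count filters, DESeq2 1.42.0, limma-voom (limma 3.58.1), a limit of 0.05, other sets of samples, a replicate block and each replicate left out. Leaving out the caput samples richest in *Cst8* was added after seeing the data. Each group came from as many mice as it has samples, per the study's methods. Results on the altered gene itself are not reported here.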

Additional observations from a re-analysis of the deposited data

Results flagged for a closer look

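The ArKI change of *Srd5a1* differed between the epididymal segments by a test of the difference itself. The change was 0.86 higher on the log2 scale in the caput than in the IS (standard error 0.203, adjusted p = 0.0058 from edgeR, 20 samples), with *Srd5a1* lower in the ArKI IS and overlapping between genotypes in the caput. With a replicate block the value was 0.87 and missed the limit of 0.01 (adjusted p = 0.031 from edgeR). Among the 21 groups of sample values checked, no sample stood apart from its group by Dixon's criterion.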

How the results depend on the processing

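Of 928 recomputed values, 866 kept their direction and their side of the limit, 27 lost a call, 19 gained one and 16 changed sign. The number of enzymes that passed at an adjusted p below 0.05 was 4 in the IS, 2 in the caput, 2 for the interaction and 0 in the testis. At that limit 3980 of all 13434 genes tested passed in the IS and 3808 of 13726 in the caput. For the interaction 2170 of 14329 passed, and in the testis 311 of 15838. At the limits of the report, the number with each replicate left out was 1 to 3 in the IS (1 without WT replicate 2 and 3 without WT replicate 5), 0 or 1 for the interaction and 0 or 1 in the testis, and with DESeq2 it was 0 in the testis. Equal replicate numbers were not taken as pairs, since in no comparison were all correlations above 0.1 (-0.149 to 0.187 over all pairs). Between the WT segments 3 of 5 pairs were above 0.1 and highest with their own number, a hint from the data and not the design, against 1 and 2 of 5 in ArKI. With a replicate block 0 enzymes passed for the interaction, where *Srd5a1* had 0.87 (adjusted p = 0.031). The block also ended the call of *Srd5a3* between the WT segments (-0.23, adjusted p = 0.012), as did DESeq2 and the filter of at least 1 count (-0.23, adjusted p = 0.013 in each).

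The values that changed sign had missed the limit in every case. They were *Hsd17b4* in the interaction (0.01 by library size only, 0.00 with the replicate block, -0.03 to 0.02 without single replicates), *Srd5a2* in the caput (-0.04 without ArKI replicate 1, -0.01 without ArKI replicate 4 or WT replicate 1, and up to 0.14 without ArKI replicate 2), *Hsd17b2* in the testis (0.05 without ArKI replicate 3, 0.22 without WT replicate 2 and down to -0.38 without WT replicate 1) and *Hsd17b11* in the interaction (0.04 with the *Cst8*-rich caput samples left out). The cause was not tested. Over all genes, 846 passed in the testis, 521 with DESeq2 and 349 to 1315 with a replicate left out. At 0.05, 3980 passed in the IS (2529 at 0.01), 3808 in the caput (2468), 2170 for the interaction (1172) and 311 in the testis. Without the *Cst8*-rich samples 1283 passed in the caput. Depth limits *Hsd17b2* and *Hsd17b6* in the epididymis and *Srd5a2* in the testis, where differences between the genotypes could not be tested.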
